A study of Mus musculus with 12 samples.

Results

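The RNAs described here are 267 well-expressed long noncoding RNAs of mouse B16F10 melanoma tumours. They were taken from the deposited gene counts by annotation and by level. A gene had to carry the biotype lincRNA (114 of the 267), processed_transcript (75), antisense (54), bidirectional_promoter_lncRNA (17) or sense_intronic (7) and lie off chromosomes X and Y. A further biotype of the rule, lncRNA, held no member. It also had to reach a mean of 3 CPM (counts divided by the library's total, times 1000000) in at least 1 of the 2 groups of libraries. Of 54532 genes in the table, 8923 met the annotation part, 4730 of those had at least 1 count and 267 met the level. Another 11 genes of these biotypes reached the level on chromosome X or Y and were left out by the rule. At the limit in both groups were 203 of the 267, in iKO alone 45 and in Ctrl alone 19. The 45 and the 19 had to differ between the groups to be in only 1 of them, so they are given as values, with no test.

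B16F10, a mouse melanoma line that makes pigment, was injected as wild-type cells into the skin on each leg of male hosts, and the resulting tumours gave 12 libraries. The 6 Ctrl hosts were Trex1 wt/fl-R26CreERT2-ki/wt and the 6 iKO hosts Trex1 fl/fl-R26CreERT2-ki/wt, aged 8 to 12 weeks. Trex1 encodes a DNA exonuclease whose loss lets cytosolic DNA switch on type I interferon signalling. Host cells of both groups thus carried the tamoxifen-activated Cre at the Rosa26 locus, and all hosts were dosed with tamoxifen (1 mg, day 5 onward, 3 days) before harvest on day 14. The implanted tumour cells are labelled wild type, so the genotypes differ in host cells only. The cells were sorted against CD45 (leukocytes) and CD31 (endothelium); the cell type label says negative for both, the protocol text negative for either. Which library came from which host is not in the labels, and 1 host could give more than 1 tumour, so p-values measure the spread among libraries and may understate that among animals.

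A long noncoding RNA is a transcript that is often spliced and polyadenylated like a messenger RNA but encodes no long protein. Some act as the RNA itself: Malat1 sits in nuclear speckles and Neat1 is the scaffold of paraspeckles. Others are best known for what is cut out of them, such as the small nucleolar RNAs (snoRNAs, guides of ribosomal RNA modification) in the introns of the Snhg genes and Gas5, or the microRNAs within Mir17hg, Mir22hg and Dleu2. Many more start beside a protein-coding gene and are transcribed away from it, and for most of these no function is known.

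The microRNAs carried by the hosts that the results turn on are shown first, since they are what these hosts are known for. Of the 267 members, 15 held 53 mature microRNAs within their span (RefSeq, GRCm38.p6). The sequences below run 5′ to 3′ with the seed, bases 2 to 8, in capitals. Dleu2 carries miR-15a and miR-16, which share the seed AGCAGCA. Mir17hg carries 2 pairs with a shared seed, miR-17 with miR-20a (AAAGUGC) and miR-19a with miR-19b (GUGCAAA), besides miR-18a and miR-92a. The let-7 sequences of Lncppara share GAGGUAG. The libraries were made from polyadenylated RNA, so every value below is of the host transcript and none is of a mature microRNA.
miR-15a-5p: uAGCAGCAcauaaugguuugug
miR-16-5p: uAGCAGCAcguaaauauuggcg
miR-17-5p: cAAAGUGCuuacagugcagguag
miR-20a-5p: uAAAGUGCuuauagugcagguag
miR-19a-3p: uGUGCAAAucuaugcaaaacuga
miR-19b-3p: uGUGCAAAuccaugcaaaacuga
miR-18a-5p: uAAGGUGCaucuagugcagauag
miR-92a-3p: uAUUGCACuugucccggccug
miR-22-3p: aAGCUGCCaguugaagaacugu
miR-129-5p: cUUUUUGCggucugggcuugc
miR-670-5p: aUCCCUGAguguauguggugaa
let-7b-5p: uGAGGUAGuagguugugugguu
let-7c-5p: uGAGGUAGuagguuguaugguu
miR-101a-3p: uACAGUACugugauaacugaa

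All members with a RefSeq promoter were also looked at by promoter, whichever gene they start beside. RefSeq (GRCm38.p6) gave 202 promoters for 160 of the members, each 300 bases long with 250 before the start and 50 from the start on. The core of the interferon-stimulated response element, GAAA, then any 2 bases, then GAAA, was searched on both strands. It stood in 3.44% of all 32851 promoters of the table and in 5 of the 202 member promoters (2.48%). Among members at the limit in both groups, 0 of the 19 genes called higher that had a promoter held it. Among members at the limit in iKO alone, 4 of 21 genes did (Gm16675, Gm26797, Gm36161 and Gm16010), in 4 of 24 promoters. Counted by gene over all promoters, 1079 of 27025 genes held it. Those 21 are members only through their level in iKO, so this share is a description and was not tested. The first 3 of the 4 genes are shown, with the match in capitals, because their CPM in iKO was the farthest from Ctrl. They lie at chr8:46739466-46739765 (minus strand), chr9:122310879-122311178 (minus) and chr13:120010092-120010391 (plus). The match began 2 bases after the start in Gm16675, where it reads TTTCATTTTC on the printed strand, 47 before it in Gm26797 and 40 after it in Gm36161. A match is a description of letters and shows no binding. The letters TTCNNNGAA, the core to which STAT proteins bind, were in 8.30% of all promoters and 7.92% of the members'.
Gm16675: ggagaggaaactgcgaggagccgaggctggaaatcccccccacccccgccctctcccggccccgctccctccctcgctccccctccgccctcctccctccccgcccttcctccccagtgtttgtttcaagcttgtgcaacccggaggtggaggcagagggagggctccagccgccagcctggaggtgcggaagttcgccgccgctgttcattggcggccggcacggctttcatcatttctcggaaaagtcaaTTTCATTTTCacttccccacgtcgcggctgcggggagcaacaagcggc
Gm26797: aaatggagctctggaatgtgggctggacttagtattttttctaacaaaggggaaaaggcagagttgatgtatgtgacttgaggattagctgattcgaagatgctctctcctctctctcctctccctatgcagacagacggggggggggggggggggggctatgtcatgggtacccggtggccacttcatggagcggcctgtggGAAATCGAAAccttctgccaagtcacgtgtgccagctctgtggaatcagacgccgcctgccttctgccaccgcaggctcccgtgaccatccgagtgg
Gm36161: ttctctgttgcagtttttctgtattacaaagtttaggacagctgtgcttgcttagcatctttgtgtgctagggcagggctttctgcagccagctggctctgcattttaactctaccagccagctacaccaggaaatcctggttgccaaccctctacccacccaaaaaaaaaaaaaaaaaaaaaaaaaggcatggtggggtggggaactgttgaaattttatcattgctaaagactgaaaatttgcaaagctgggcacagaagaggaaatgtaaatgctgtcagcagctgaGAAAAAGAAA

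Library totals were 34342436 to 45828565 counts in Ctrl and 29808243 to 35520399 in iKO. Trex1 was listed at 0 counts in all 12 libraries (a count of 0 allows up to 3 counts, 0.0655 to 0.101 CPM, counting error only), so its level could not check the genotype labels. Libraries Ctrl 5 and iKO 1 stood apart: 10 leukocyte markers summed to 70.8 to 91.8 CPM in the other Ctrl libraries and 240 in Ctrl 5, against 213 in iKO 1 and 1154 to 2232 in the other iKO libraries. All 10 leukocyte, 5 of 5 macrophage and 5 of 5 T cell markers were called higher in iKO, beside 25.0% of all tested genes. The cells had been sorted against CD45, but the label and the protocol differ on that sort. Each T cell marker was at 0 in at least 1 Ctrl library. Of 7 melanocyte markers, 6 were lower in iKO (summed 21461 to 22362 CPM in Ctrl and 14871 to 22161 in iKO). Xist was at 219 CPM in iKO 2 and 117 in iKO 3, and 4 Y-linked genes summed to 0 in iKO 3 and 1.40 in iKO 2 against 2.83 or more in all other libraries, which goes against the label male for those 2. In such bulk libraries, more cells of a type and more RNA per cell cannot be told apart.

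Over the 203 members at the limit in both groups, 31 were called higher in iKO, 37 lower and 135 were not called (edgeR's quasi-likelihood test, Benjamini-Hochberg adjusted over all 16164 tested genes, threshold 0.05). This is 33.5% called. Of all tested genes 46.4% were called (25.0% higher, 21.4% lower), and of the 11192 genes at the same limit in both groups 52.1% (22.8% higher, 29.3% lower). The share among the members was thus not above the background, and the median log2 fold change of the 203 was 0.0033, beside -0.049 for all genes at that limit. Of the called members, 9 rose and 3 fell by 1 or more on the log2 scale. The libraries of the groups did not overlap in 27 of the 203 members (13.3%), 11 of the 31 higher, 15 of the 37 lower and 1 not called, beside 28.7% of all genes at the limit and 23.6% of all tested genes. In 17 of the 31 higher members iKO 1 was the lowest iKO library and in 20 iKO 4 was the highest, and in 20 of the 37 lower members iKO 1 was the highest. With the leukocyte marker score of each library as a further term, 6 members were called higher and 8 lower; 3 and 6 of these had the same call without it. That score was -0.10 to 1.47 in Ctrl (4.09 in Ctrl 5) and 6.61 to 7.52 in iKO (3.85 in iKO 1), so it and the group were nearly the same split of the libraries. Among these 9 were Gm20559, Gm38399 and Zswim6, which were higher, and Gt(ROSA)26Sor, Dancr, Rapgef3os2, Lockd and Mir670hg, which were lower.

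**Figure D1:**
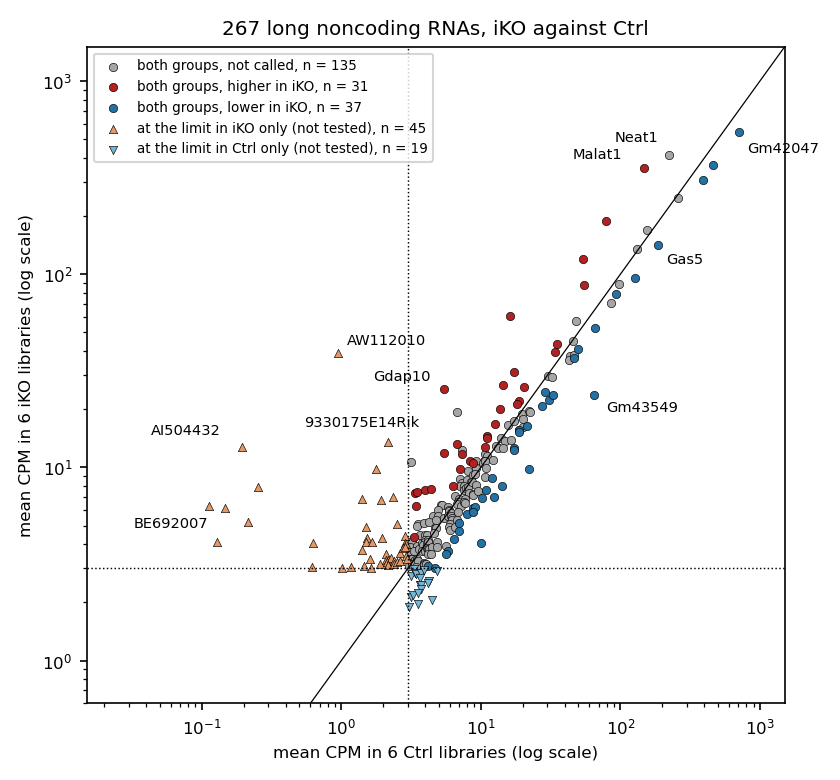
Mean CPM of the 267 members in the 6 iKO libraries (y axis) against the 6 Ctrl libraries (x axis), both on a log scale; 1 point is 1 RNA, dotted lines mark the limit of 3 CPM and the solid line equal levels. Most points lie along the line, the 31 red points above it and the 37 blue points below it were called, and the triangles are the 45 and 19 members at the limit in a single group.

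The members together took 0.549 ± 0.0252% of all counts in Ctrl and 0.577 ± 0.0484% in iKO (mean ± SD, n = 6 each), ranges of 0.509% to 0.580% and 0.534% to 0.663% that overlap. Few RNAs made up much of this: the 8 with the highest mean CPM held 45.3% of all member counts, 78 members reached 10 CPM over the 12 libraries and 11 reached 100 CPM, and the median member was at 5.87 CPM. The 8 were Gm42047, AI506816, Cct6a, Neat1, 2900097C17Rik, Malat1, Gas5 and 1700020I14Rik. Because longer RNAs give more reads, levels of different RNAs are compared per kilobase of exon: there 2410006H16Rik led in both groups, with 213 CPM per kb in Ctrl and 192 in iKO, followed by Gm42047 with 126 and 96.7.

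Gm42047, a lincRNA at chr8:121833247-121841178 (mm10 throughout), had 573, 723 and 870 CPM (lowest, median and highest library, as below) in Ctrl and 465, 542 and 659 in iKO. The groups overlapped, and the log2 fold change was -0.35 ± 0.10 (SE; adjusted p = 0.0129). AI506816 (chr5:23698296-23712667) had 410, 463 and 493 CPM in Ctrl and 310, 376 and 412 in iKO, a log2 fold change of -0.30 ± 0.07 (adjusted p = 0.00229). Only the highest iKO library, iKO 3, reached the lowest Ctrl library, Ctrl 5. The lincRNAs 2900097C17Rik and 1700020I14Rik, also among the 8, were not called. 2900097C17Rik had 251, 260 and 272 CPM in Ctrl and 233, 245 and 271 in iKO (-0.04 ± 0.04, adjusted p = 0.482). 1700020I14Rik had 125, 160 and 168 and then 158, 163 and 191 (0.15 ± 0.08, adjusted p = 0.114).

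Malat1, the abundant nuclear speckle RNA (ENSMUSG00000092341, chr19:5795690-5802672, a single long transcript), had 114, 149 and 173 CPM in Ctrl and 258, 341 and 523 in iKO. Every iKO library, iKO 1 included, stood above every Ctrl library. The log2 fold change was 1.32 ± 0.17 (adjusted p = 8.58e-05), and per kb of exon it moved from below to above the level of Gas5. With the leukocyte score as a term the log2 fold change was 1.10 and the adjusted p 0.139. Neat1, its neighbour on chromosome 19 (chr19:5824708-5845478), on which paraspeckles form, had 141, 235 and 251 CPM in Ctrl and 122, 380 and 773 in iKO. In iKO 1 it was below all Ctrl libraries, and in the other 5 iKO libraries, at 313 or more, above all of them. Its log2 fold change of 0.94 ± 0.36 missed the threshold (adjusted p = 0.0530), but without iKO 1 it was 1.13 (adjusted p = 0.00297), and DESeq2 gave 0.94 with an adjusted p of 0.0108. With the leukocyte score as a term Neat1 turned to -0.86 (adjusted p = 0.582). Tug1, the remaining member of this list, which has been linked to chromatin repression, had 105, 134 and 147 CPM and then 118, 137 and 144 (0.08 ± 0.07, adjusted p = 0.384), and was called with the score (0.44, adjusted p = 0.0479).

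The proteins of these bodies did not move as a block. Of 9 genes for paraspeckle and speckle proteins, 2 were called higher and 5 lower, with a median log2 fold change of -0.19, beside 22.8% and 29.3% of all genes at the limit. Of those 9, Nono, a core paraspeckle protein, fell by 0.19 on the log2 scale (SE 0.05, adjusted p = 0.00396), from 518 to 529 CPM in Ctrl to 424 to 478 in iKO. The speckle scaffolds Son and Srrm2 rose by 0.51 ± 0.08 and 0.78 ± 0.13 (adjusted p = 0.000172 and 0.000288).

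**Figure D2:**
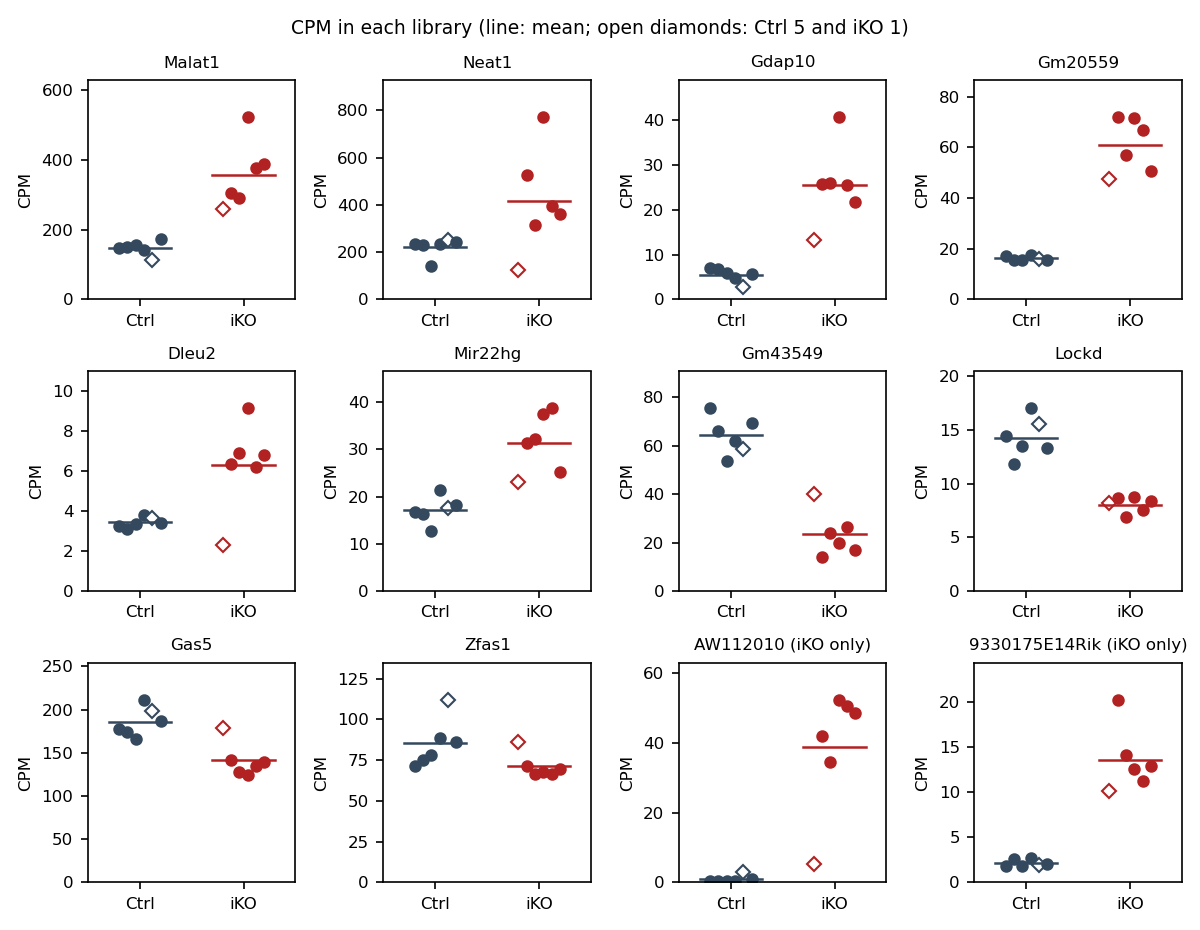
CPM of 12 members in each library, Ctrl left and iKO right on a linear axis from 0; lines are group means and the open diamonds are Ctrl 5 and iKO 1. Malat1, Gdap10, Gm20559 and Mir22hg separate the groups upward and Gm43549 and Lockd downward, whereas iKO 1 lies among the Ctrl libraries for Gas5 and below all of them for Dleu2 and Neat1.

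All 3 microRNA hosts of the list that were at the limit in both groups were called higher, beside 22.8% of all genes at that limit. None of the 3 was called with the leukocyte score as a term. The list was chosen with earlier results known and leaves out other members that hold microRNAs, so 3 of 3 is not the share among all hosts. Mir22hg (chr11:75461539-75466676), host of miR-22, had 12.7, 17.1 and 21.5 CPM in Ctrl and 23.0, 31.7 and 38.8 in iKO, with no overlap (0.90 ± 0.15, adjusted p = 0.000287). With the score it was 0.27 (adjusted p = 0.628). Dleu2 (chr14:61602839-61682373), host of miR-15a and miR-16 and named for its deletion in leukaemia, had 3.10, 3.37 and 3.81 CPM in Ctrl and 2.30, 6.59 and 9.16 in iKO. Here iKO 1 was the lowest of all 12 libraries and the other 5 iKO libraries were above all Ctrl libraries (0.91 ± 0.25, adjusted p = 0.00780). Dleu2 turned to -0.52 with the score (adjusted p = 0.602). Mir17hg (chr14:115042879-115046727), host of the miR-17 to miR-92a cluster known for promoting growth, had 5.22, 7.57 and 8.29 CPM and then 6.93, 9.30 and 14.2. It rose by 0.49 ± 0.16 (adjusted p = 0.0223), and without iKO 4, its highest library, by 0.35 (adjusted p = 0.0520); with the score it was 0.46 (adjusted p = 0.500).

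Outside that list, Mir670hg (chr2:94160636-94264918), host of miR-670 and miR-129, fell: 19.7, 21.7 and 25.6 CPM in Ctrl against 5.74, 10.6 and 11.7 in iKO, with no overlap (-1.14 ± 0.15, adjusted p = 5.61e-05). AL805899.1, which holds miR-31, and C130071C03Rik, which holds miR-9, were not called (0.33 ± 0.19, adjusted p = 0.179, and -0.03 ± 0.10, adjusted p = 0.822). H19, Meg3, Rian and Snhg20, described below, also hold microRNAs, were at the limit in both groups and were not called. 2 further hosts were at the limit in iKO alone. Lncppara, with let-7b and let-7c, had 0.934, 1.51 and 1.87 CPM in Ctrl and 3.14, 3.61 and 4.56 in iKO. E130102H24Rik, with miR-101a, had 0.450, 1.24 and 1.63 and then 2.34, 3.00 and 3.89. The libraries of the groups did not overlap for either. Of 8 genes of microRNA processing, 4 were called higher and 1 lower (62.5% called, beside 52.1% of all genes at the limit). The Argonaute gene Ago2, whose protein carries microRNAs to their targets, rose by 0.80 ± 0.13 (adjusted p = 0.000393), and Drosha, which cuts the hairpins out of their hosts, fell by 0.15 on the log2 scale (SE 0.06, adjusted p = 0.0461).

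The largest rise among members at the limit in both groups was that of Gdap10 (ENSMUSG00000096954, chr12:32821872-32826904). It had 2.72, 5.76 and 7.05 CPM in Ctrl and 13.1, 25.5 and 40.7 in iKO. The groups did not overlap, with iKO 1 the lowest of its group (2.26 ± 0.27, adjusted p = 5.98e-05). Gdap10 lies on the same strand within the span of Nampt, an enzyme of NAD synthesis, which rose by 0.54 ± 0.07 from 276 to 316 CPM in Ctrl to 371 to 457 in iKO; the 2 shared no exon bases. Gm20559 (ENSMUSG00000106734, chr6:3333194-3346128) followed, with 15.5, 15.9 and 17.5 CPM in Ctrl and 47.6, 61.8 and 72.1 in iKO. Its change of 1.94 ± 0.11 (adjusted p = 2.69e-08) was the only one of the 8 largest rises, besides that of Gm38399, to be called with the leukocyte score as a term (1.54, adjusted p = 0.00177). The nearest protein-coding start, 53444 bases away, is that of the interferon-induced gene Samd9l, which rose by 1.69 ± 0.10.

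Of the other large rises, AU020206 (chr7:75769038-75782099) went from 44.4, 57.2 and 59.4 CPM to 91.0, 125 and 138, with no overlap (1.18 ± 0.12, adjusted p = 9.11e-06). Gm26917 (chr17:39843013-39846341) had 62.5, 83.8 and 94.0 CPM in Ctrl and 123, 185 and 272 in iKO (1.29 ± 0.23, adjusted p = 0.000972). It lies next to a copy of 18S ribosomal RNA, Rn18s-rs5 in RefSeq, so its counts may include reads from ribosomal RNA copies and are uncertain. Gm38399 rose by 1.17 ± 0.24, Gm26724 by 1.16 ± 0.26 and F730043M19Rik by 1.15 ± 0.23 (adjusted p = 0.00163, 0.00259 and 0.00111). For Gm26724 and F730043M19Rik the lowest iKO library, iKO 1, was within the range of Ctrl. With the score, the log2 fold changes that lost their call were 2.28 for Gdap10 (adjusted p = 0.0929), 1.55 for Gm26724 (0.222), 0.89 for AU020206 (0.0630), 0.58 for F730043M19Rik (0.604) and 0.32 for Gm26917 (0.709), besides Malat1. Those of Gdap10 and Gm26724 were thus not smaller than without it. The other rises were smaller, down to 0.25 (5031425E22Rik), with a median of 0.70 over all 31.

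Gm43549 (chr3:55578105-55582730), a lincRNA of no known role, had the largest fall: 53.7, 64.2 and 75.6 CPM in Ctrl and 14.0, 21.9 and 40.1 in iKO (-1.43 ± 0.21, adjusted p = 0.000221). The groups did not overlap, and iKO 1 was the highest iKO library. Gm20619 (chr6:6248659-6378675) had 8.87, 9.87 and 11.9 CPM in Ctrl and 2.58, 2.79 and 7.51 in iKO, again with iKO 1 the highest (-1.29 ± 0.25, adjusted p = 0.00112). Lockd (chr6:134929092-134956798), which starts 8691 bases from the cell cycle inhibitor gene Cdkn1b, had 11.9, 14.0 and 17.0 CPM in Ctrl and 6.85, 8.27 and 8.72 in iKO. For Lockd, iKO 1, at 8.18 CPM, lay within its group (-0.80 ± 0.11, adjusted p = 8.27e-05), and the fall with the leukocyte score as a term was -1.11 (adjusted p = 0.00866). 2610035D17Rik had 9.81, 13.0 and 14.4 CPM and then 4.70, 6.42 and 12.5 (-0.81 ± 0.19, adjusted p = 0.00396), with iKO 1 among the Ctrl libraries. With the score, the other 3 were not called: -0.76 for Gm43549 (adjusted p = 0.191), -0.48 for Gm20619 (0.541) and -0.18 for 2610035D17Rik (0.775).

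AC165953.2 fell by 0.64 on the log2 scale, Gm29084 by 0.62 and Rapgef3os2 by 0.61 (SE 0.15, 0.19 and 0.16; adjusted p = 0.00328, 0.0138 and 0.00582). Rapgef3os2 shares 48.4% of its exon bases with Rapgef3 on the other strand, and the libraries did not keep strand. The falls ranged from 0.21 to 1.43 with a median of -0.44 over all 37. Among them was Gt(ROSA)26Sor (chr6:113067428-113077333), the RNA of the Rosa26 locus in which all hosts carried the Cre, with 15.6, 17.0 and 19.1 CPM in Ctrl and 10.8, 12.5 and 13.4 in iKO (-0.46 ± 0.09, adjusted p = 0.000812). Setd5, whose start is 32 bases away on the other strand, rose by 0.36 ± 0.09. Gt(ROSA)26Sor, like other genes here outside the rule for named genes, was named after its values were seen.

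Of 21 host genes of snoRNAs listed, 13 were members, all at the limit in both groups: 7 were called lower, 0 higher and 6 were not called, and 11 had a log2 fold change below 0, with a median of -0.26. Their log2 fold changes ran from -0.55 (Dancr) to 0.29 (Snhg17). Among all genes at the limit in both groups, 29.3% were called lower, 55.3% had a value below 0 and the median was -0.049. With the leukocyte score as a term, Dancr was the only one of the 7 to keep its call. snoRNA hosts carry their snoRNAs in introns, and many of the spliced RNAs are short-lived targets of nonsense-mediated decay.

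Gas5 (chr1:161034422-161038539), whose spliced RNA accumulates when cells stop growing, had 166, 182 and 212 CPM in Ctrl and 125, 137 and 179 in iKO (-0.37 ± 0.08, adjusted p = 0.00267). In iKO 1 it was within the Ctrl range and in the other 5 iKO libraries, at 142 or less, below all Ctrl libraries. The same held for Snhg1 (45.6, 50.4 and 54.1 CPM in Ctrl; 36.4, 39.4 and 52.0 in iKO; -0.26 ± 0.08, adjusted p = 0.0127). Snhg6 had 40.2, 45.4 and 57.4 CPM and then 29.6, 35.6 and 45.5 (-0.32 ± 0.10, adjusted p = 0.0188). Snhg15 (25.6, 27.5 and 28.3 CPM against 18.1, 20.9 and 23.5) and Dancr (5.91, 6.82 and 8.93 against 3.45, 4.71 and 5.89) did not overlap between groups (-0.35 ± 0.08, adjusted p = 0.00313, and -0.55 ± 0.15, adjusted p = 0.00959). Several of these calls rested on single libraries: without Ctrl 5, the adjusted p was 0.0520 for Snhg1, 0.0746 for Snhg6, 0.107 for Snhg8 (-0.31) and 0.133 for Snhg5 (-0.19), and without Ctrl 4 it was 0.0635, 0.0650, 0.101 and 0.114. Snhg8 was also not called without Ctrl 3, iKO 2, iKO 3 or iKO 4, and Snhg5 not without Ctrl 2, Ctrl 3, iKO 3, iKO 4, iKO 5 or iKO 6.

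Zfas1, a host of snoRNAs on chromosome 2, had 71.6, 82.1 and 112 CPM in Ctrl and 66.5, 68.7 and 86.0 in iKO and missed the threshold (-0.23 ± 0.10, adjusted p = 0.0780); without iKO 1 the change was -0.28 (adjusted p = 0.0330). Snhg12 (0.00 ± 0.09, adjusted p = 0.987), Snhg4, Snhg20 and Epb41l4aos were not called either. With the score Snhg20 went from -0.18 to -1.13 and was called lower (adjusted p = 0.00103). Snhg17, with 41.3, 48.2 and 55.1 CPM and then 43.1, 54.5 and 82.3, had the highest value of the hosts (0.29 ± 0.14, adjusted p = 0.0979), and without iKO 1 it was called higher (0.37, adjusted p = 0.0210). Among 9 genes of nonsense-mediated decay, 3 were called higher and 1 lower (44.4% called, beside 52.1%). Smg5 (-0.01 ± 0.06, adjusted p = 0.903) and Upf1, the helicase at the centre of this decay (-0.06 ± 0.05, adjusted p = 0.374), were not called.

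**Figure D3:**
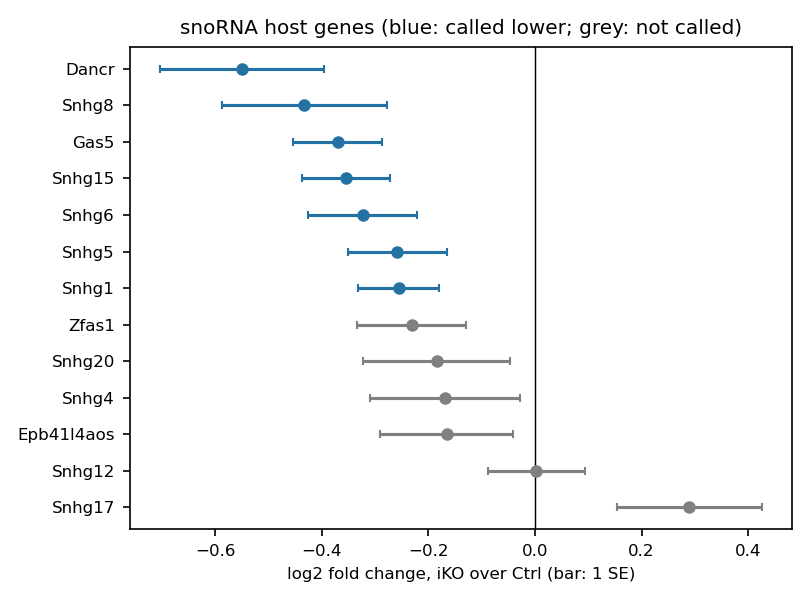
Log2 fold change (x axis, iKO over Ctrl) of the 13 snoRNA host members, with a bar of 1 SE; blue points were called lower and grey points not called. All but Snhg12 and Snhg17 lie left of 0, between -0.55 and -0.17.

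Imprinted RNAs are transcribed from only 1 parental copy and are high in fetal and mesenchymal cells. Those at the limit in both groups gave 0 calls of 4, beside 52.1% of all genes at that limit. Of the 4, 3 varied widely between iKO libraries. H19 (chr7:142575529-142578143) had 2.81, 3.08 and 3.71 CPM in Ctrl. In iKO 1 to iKO 6 it had 2.40, 54.1, 0.198, 0.268, 6.42 and 0.253 CPM. Meg3 (chr12:109541001-109571726) had 5.66, 6.30 and 8.71 CPM in Ctrl and 4.87, 87.2, 5.15, 2.11, 14.9 and 1.46 in the same order. Rian, downstream of Meg3 in the same imprinted region, had 5.56, 7.47 and 8.77 CPM in Ctrl and 5.07, 50.1, 3.00, 2.05, 12.9 and 1.10. All 3 RNAs were highest in iKO 2, next in iKO 5 and under all Ctrl libraries in the other 4 iKO libraries.

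The summed CPM of 6 fibroblast markers, 1437 to 1683 in Ctrl, was 9495 in iKO 2 and 5616 in iKO 5, was 394 in iKO 6 and lay between 1245 and 1538 in the other 3. Of the 6 markers 1, Pdgfrb, was called. The 4 keratinocyte markers summed to 145 CPM in iKO 2, to 1.81 to 2.80 in Ctrl and to at most 11.5 in the other iKO libraries, and 3 were called higher. Endothelial markers, 3 of 5 called higher with Pecam1 (the sorted CD31) among them, summed to 11.5 to 14.7 CPM in Ctrl, 13.9 in iKO 1 and 34.9 to 49.0 in the other iKO libraries. The part of such cells in the RNA values was not tested. Without iKO 2 the log2 fold changes turned from 1.76 to -0.69 for H19, from 1.53 to -0.21 for Meg3 and from 0.77 to -0.57 for Rian, none of them called (with all libraries, adjusted p = 0.276, 0.204 and 0.473). Peg13, an imprinted RNA of chromosome 15, did not share the pattern (11.8, 14.2 and 15.6 CPM in Ctrl; 12.7, 13.7 and 16.4 in iKO; 0.07 ± 0.10). Kcnq1ot1, the antisense RNA that silences an imprinted domain, was at the limit in iKO alone, with 1.87, 2.36 and 2.77 CPM in Ctrl and 3.67, 6.90 and 10.3 in iKO.

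**Figure D4:**
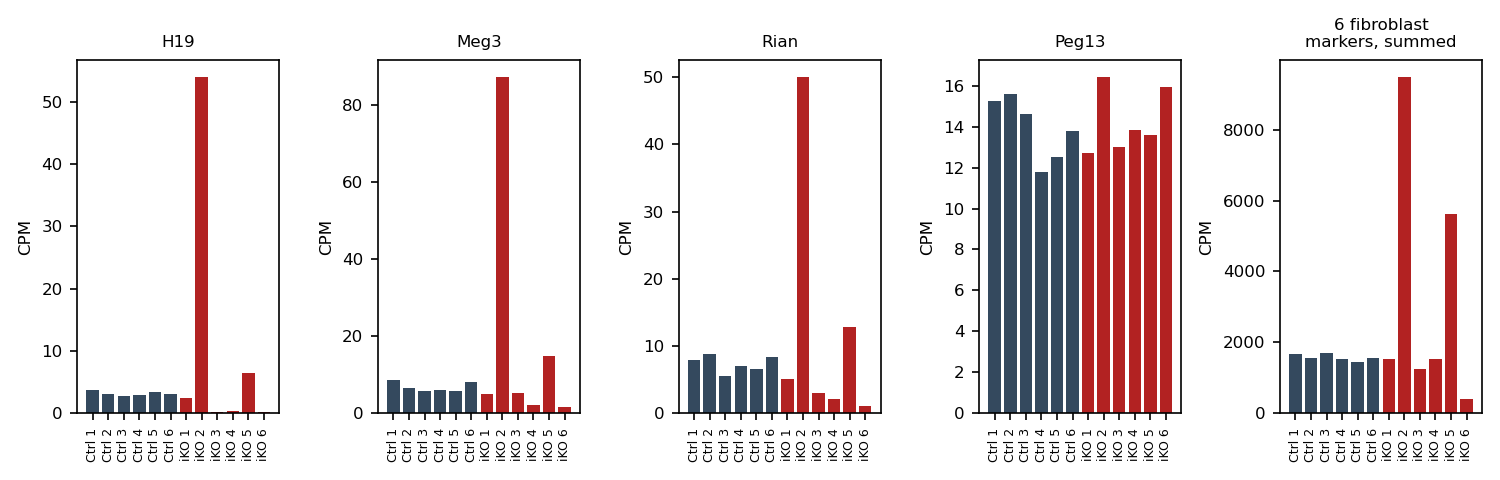
CPM of H19, Meg3, Rian and Peg13 and the summed CPM of 6 fibroblast markers in each library (bars from 0, Ctrl dark, iKO red). H19, Meg3, Rian and the fibroblast sum share their 2 highest libraries, iKO 2 and iKO 5, whereas Peg13 stays between 11.8 and 16.4 CPM.

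RNAs linked to p53, the stress-activated tumour suppressor, gave 1 call of 5, the fall of Gas5. Of all genes at the limit in both groups, 52.1% were called. Trp53cor1 (lincRNA-p21), beside Cdkn1a, had 2.78, 4.12 and 4.69 CPM in Ctrl and 2.45, 3.15 and 6.14 in iKO (-0.08 ± 0.22, adjusted p = 0.790). Pvt1, the neighbour of Myc, had 14.0, 14.4 and 16.5 and then 11.9, 13.0 and 16.2 (-0.09 ± 0.10, adjusted p = 0.451). Of the immune-linked list, Gm14005 (Morrbid, known for the survival of short-lived myeloid cells) had 5.84, 7.55 and 10.9 CPM in Ctrl and 5.10, 7.83 and 9.21 in iKO (0.02 ± 0.17, adjusted p = 0.946).

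Of the 203 members, 14 are protein-coding genes in RefSeq, so they may not be noncoding. Of these 14, 4 were called higher and 3 lower, beside 22.8% and 29.3% of all genes at the limit in both groups. Without them 27 of 189 members were higher and 34 lower. Ifi30, the interferon-gamma-inducible thiol reductase of antigen processing, had 46.9, 53.9 and 71.0 CPM in Ctrl and 48.3, 91.4 and 108 in iKO, with iKO 1 in the Ctrl range (0.71 ± 0.18, adjusted p = 0.00674). Zswim6 rose from 12.1, 14.4 and 17.7 CPM to 24.2, 26.7 and 29.4 without overlap, with iKO 1, at 27.3 CPM, in the middle of its group (0.93 ± 0.09, adjusted p = 5.17e-06). Cct6a, a subunit of the chaperonin that folds actin and tubulin, had 381, 392 and 415 CPM in Ctrl and 272, 298 and 349 in iKO (-0.33 ± 0.06, adjusted p = 0.000581). 1810058I24Rik, a mitochondrial microprotein gene, fell by 0.39 on the log2 scale (SE 0.06, adjusted p = 0.000166).

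Of the 267 members, 92 started within 2000 bases of a protein-coding gene's start, and in 90 that neighbour was tested. In 70 such pairs the member was at the limit in both groups, and in 65 of these the neighbour lay on the other strand. Of 9 members called higher, the neighbour was higher for 4, lower for 1 and not called for 4. Of 15 called lower, it was lower for 4, higher for 3 and not called for 8. Beside the members that were not called, the neighbour was higher for 12, lower for 12 and not called for 22. In all, 36 of the 70 neighbours were called. Of protein-coding genes at the limit in both groups, 53.2% were called (23.5% higher, 29.7% lower), so the share among the neighbours was not above the background. The log2 fold changes of member and neighbour had r = 0.31 across the 70 pairs, and r = 0.18 across the 49 in which the neighbour was not the gene with which the member shared most exon bases. These are descriptions over genes measured in the same libraries.

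F730043M19Rik and Atxn7l1, whose starts are 96 bases apart, rose together (1.15 ± 0.23 and 0.57 ± 0.09). Brip1os and Brip1, a DNA repair helicase, fell together (-0.21 ± 0.07 and -0.43 ± 0.12). Brip1os was not called without Ctrl 2, Ctrl 3, Ctrl 6 or iKO 4, with adjusted p from 0.0518 to 0.0658. By contrast Gas5 fell beside Zbtb37, 427 bases away, which rose by 0.88 ± 0.16 from 9.51, 18.6 and 21.4 CPM to 25.7, 30.1 and 37.3. Zfas1 starts 81 bases from Znfx1, an antiviral RNA helicase, which went from 55.5, 66.6 and 73.3 CPM to 150, 186 and 210 (1.52 ± 0.09, adjusted p = 4.34e-08) while Zfas1 was not called. Foxd2os fell from 9.15, 10.1 and 11.2 CPM to 5.77, 6.64 and 8.41 (-0.53 ± 0.11, adjusted p = 0.00151), and Foxd2, 384 bases away, was not called (0.47 ± 0.24, adjusted p = 0.125).

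**Figure D5:**
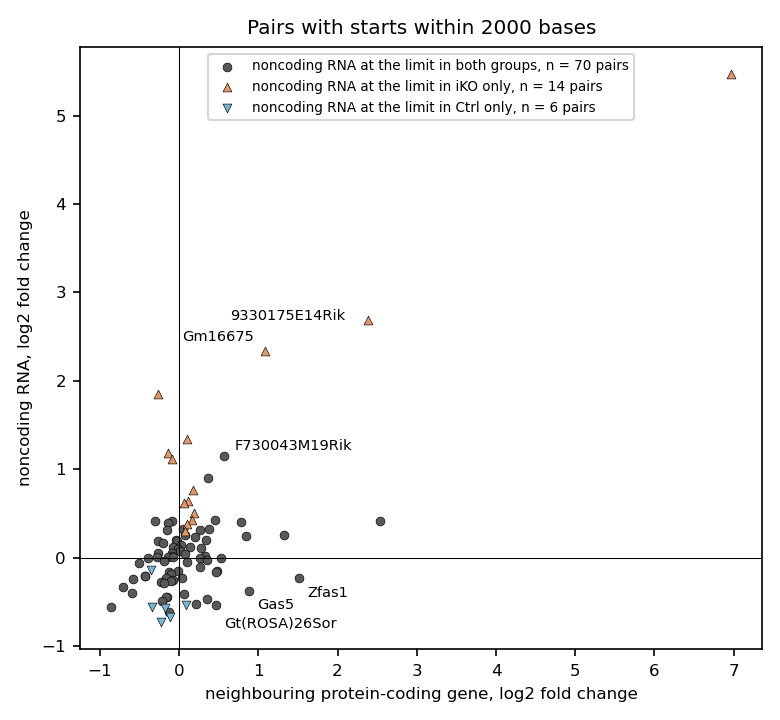
Log2 fold change (iKO over Ctrl) of each member (y axis) against that of the protein-coding gene whose start lies within 2000 bases (x axis), 90 pairs; circles are members at the limit in both groups and triangles those at the limit in a single group. Most circles lie close to 0 on both axes, and Gas5 and Zfas1 lie below 0 beside neighbours that rose.

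The 45 members at the limit in iKO alone were chosen by their level in iKO, so their differences are described only. Of these, 21 had a Ctrl mean of 2 CPM or more, just under the limit, and 9 had one below 1 CPM. The 6 with the largest log2 fold change were AI504432, Gm43305, BE692007, AW112010, Gm19951 and Gm36161. AW112010 (chr19:11047617-11050566), an RNA known from activated immune cells, had 0.318, 0.492 and 3.08 CPM in Ctrl and 5.21, 45.4 and 52.5 in iKO. AI504432, which starts 3335 bases from the potassium channel gene Kcna3, had 0, 0.113 and 0.769 CPM and then 0.401, 13.6 and 24.7. Gm43305 (0, 0.0993 and 0.302 CPM in Ctrl; 1.07, 5.05 and 11.3 in iKO) lies on chromosome 14. BE692007, which shares 20.8% of its exon bases with Ms4a6c, had 0 counts in 5 Ctrl libraries, 0.879 CPM in Ctrl 5, 0.501 in iKO 1 and 5.25 to 10.2 in the other iKO libraries. Gm19951 likewise had 0 in 5 Ctrl libraries, 0.769 CPM in Ctrl 5, 0.434 in iKO 1 and 3.43 to 6.47 in the others.

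For these 6 RNAs the highest Ctrl library was Ctrl 5 and the lowest iKO library iKO 1, as for the summed leukocyte markers. With the leukocyte score as a term the log2 fold change turned below 0 for AI504432 (-0.42), BE692007 (-0.50), Gm19951 (-0.49) and Gm36161 (-0.067). 9330175E14Rik (chr8:94422898-94435103), which starts 747 bases from Nlrc5, the interferon-induced activator of MHC class I genes, on the other strand, had 1.77, 1.98 and 2.74 CPM in Ctrl and 10.2, 12.8 and 20.3 in iKO. Ctrl 5, at 1.90 CPM, lay within its group, while iKO 1 was the lowest iKO library, and the log2 fold change was 2.69 without and 2.43 with the leukocyte score as a term. Nlrc5 itself went from 37.4, 45.6 and 54.3 CPM to 158, 235 and 295. Their spans overlap, and 9330175E14Rik shares 1.31% of its exon bases with Nlrc5. The libraries did not keep strand, so reads from shared bases cannot be told apart, and their part was not tested. Gm16675, which starts 217 bases from the interferon regulatory factor gene Irf2 on the other strand and whose promoter is printed above, had 0.240, 0.737 and 0.824 CPM in Ctrl and 2.10, 2.80 and 4.24 in iKO. Ctrl 5 was its highest Ctrl and iKO 1 its lowest iKO library, and its log2 fold change was 2.34 without and 1.66 with the score. Irf2 had 21.5, 22.5 and 24.2 CPM and then 29.7, 49.4 and 53.5.

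A530040E14Rik (0, 0.233 and 0.379 CPM; 1.50, 5.47 and 7.62) shares 14.8% of its exon bases with C130026I21Rik, and A930037H05Rik (0.873, 1.53 and 1.92; 2.00, 2.94 and 4.97) shares 16.3% with Rnf213, whose own CPM went from 58.7 to 119 in Ctrl to 467 to 675 in iKO. In unstranded libraries such reads cannot be told apart. Gm26797, whose promoter is printed above, had 0.659, 1.19 and 2.48 CPM in Ctrl and 2.98, 4.28 and 4.97 in iKO, and the groups did not overlap. Gm36161 had 0, 0.0436 and 1.32 and then 1.13, 9.01 and 11.5. Gm16010, which also held the searched letters, had 2.07, 2.38 and 2.86 and then 2.08, 2.93 and 5.51, with overlap. Mir99ahg, host of miR-99a, let-7c and miR-125b, had 1.67, 2.62 and 3.26 and then 2.17, 2.79 and 5.99.

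The 19 members at the limit in Ctrl alone lay close to it in iKO: 17 had an iKO mean of 2 CPM or more. Of the 19, 3 had groups that did not overlap, beside 23.6% of all tested genes and 28.7% of all genes at the limit in both groups. The 19 were chosen by their level in Ctrl, so this is a description only. The largest difference was that of Gm13110, with 3.71, 4.31 and 5.36 CPM in Ctrl and 1.53, 2.09 and 2.40 in iKO. Gm45847 had 3.10, 3.48 and 4.23 CPM and then 0.970, 2.08 and 2.67, and 1110019D14Rik, which starts 8 bases from 2610001J05Rik, had 3.62, 4.91 and 6.04 and then 2.35, 2.80 and 3.51. Gm4544 (4.15 and 2.52 CPM, group means), Gm30074 (4.23 and 2.57) and 2810408I11Rik (3.07 and 1.90) overlapped between groups. Just inside the limit were Gm16185 (1.02 CPM in Ctrl, 3.01 in iKO) and Gm26811 (1.64 and 3.03). Just outside were 4930435M08Rik (1.63 and 2.97) and 5830444B04Rik (2.16 and 2.97).

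By annotation, 14 lincRNAs of 90 at the limit in both groups were called higher and 13 lower. So were 12 and 14 of 59 processed transcripts and 4 and 10 of 37 antisense RNAs. The counts were 1 and 0 of 12 bidirectional promoter RNAs and 0 and 0 of 5 sense intronic RNAs. Of all genes at the limit in both groups, 22.8% were called higher and 29.3% lower. Of the 267 members, 141 share exon bases with another gene in GENCODE M21. Of these 141, 80 share them mainly with a protein-coding gene, and 7 share 50% or more. Of the 92 members at the limit in both groups that share none, 11 were called higher and 14 lower. This is 27.2% called, beside 33.5% of all 203 members and 52.1% of all genes at that limit. The part of shared exons in the calls was not tested.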

How the data were processed

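RNA was measured in 12 sorted tumour libraries (6 Ctrl, 6 iKO). The authors deposited 1 table of raw read counts by Ensembl gene. The submitters' processing notes name mm10; which aligner and counter made the table is not given in the sources used here. Poly-T selection and non-strand-specific libraries are per the labels' protocols.

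From these, CPM were computed as counts over the library total, times 1000000. Ctrl and iKO were tested in R 4.3.3 by edgeR 4.0.16, with a robust quasi-likelihood fit on group alone, TMM factors and filterByExpr (minimum count 10, minimum total 15); p-values were adjusted by Benjamini-Hochberg over 16164 genes, threshold 0.05. Standard errors are the log2 fold change's size divided by the square root of F. Alternatives used DESeq2 1.42.0, limma 3.58.1 (voom), other filters and limits, a replicate block, a leukocyte score (mean log2 CPM of 10 markers, prior count 2) and left-out libraries. Code was tested on simulated data.

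No 2 libraries of a group were alike within sampling noise (chi-square per degree of freedom of 7.47 or more), so each counted as 1 replicate. Exon overlaps are from GENCODE M21 (GRCm38), where 266 members were found, 263 with the same coordinates; 196 members matched RefSeq by symbol.

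The members and lists were chosen with earlier results of these data known. Named were the 8 members with the highest mean CPM; the 8 largest rises and 8 largest falls past the threshold; the 6 largest differences each way among members at the limit in 1 group; up to 6 members of each list; 2 genes on each side of the limit; neighbours within 2000 bases or with overlapping spans; and 3 genes of each protein list. Other genes were named after their values were seen. A gene that this rule names is not reported here. None of the telomerase and small RNP list was a member.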

Additional observations from a re-analysis of the deposited data

Results flagged for a closer look

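For each gene named, a library was singled out where its gap to the nearest library took a larger part of its group's range than Dixon's 95% critical value for 6 libraries. This gave 24 cases in 224 groups looked at; chance flags about 5% of groups. Library Ctrl 5 was the high one for AI504432 (0.769 CPM), BE692007 (0.879), AW112010 (3.08), Gm19951 (0.769), Gm36161 (1.32) and Ifi30 (71.0), and the low one for 1700020I14Rik (125). Library iKO 1 was the low one for Ifi30 (48.3), Snhg20 (13.6), Rnf213 (467) and Irf2 (29.7). It was the high one for Zfas1 (86.0), Snhg1 (52.0), Gas5 (179) and 2610035D17Rik (12.5). Library iKO 2 was the high one for H19 (54.1), Meg3 (87.2), Rian (50.1) and Mir99ahg (5.99). Single cases were Neat1 in Ctrl 3 (141, low), Snhg4 in Ctrl 3 (5.43, low), Tug1 in iKO 6 (118, low), Gm14005 in iKO 4 (5.10, low) and 4930435M08Rik in iKO 4 (6.51, high).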

How the results depend on the processing

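The counts of 31 members higher and 37 lower stayed within 1.5 times under RLE size factors, DESeq2, limma voom, no filter on low counts and without Ctrl 5 and iKO 1 or iKO 2 and iKO 3. Leaving out 1 library gave 22 to 35 higher and 26 to 40 lower. Counts moved with the CPM limit (81 higher and 47 lower at a limit of 1 CPM; 17 higher and 19 lower at 10), with members that share exon bases left out (11 and 14) and with the leukocyte score as a term (6 and 8; all tested genes 972 and 1041 in place of 4037 and 3464). The other limits and the exon rule also change how many members are counted. With that score the log2 fold change turned to -0.42 for AI504432, -0.50 for BE692007, -0.49 for Gm19951, -0.067 for Gm36161, -0.52 for Dleu2, -0.45 for Ifi30, -0.36 for Mir99ahg and -0.86 for Neat1 (not called either way); the cause was not tested. Same-numbered libraries did not deviate together (correlations from -0.13 to 0.25, 0 of 6 highest for their own number). These values gave no sign of pairing by number but cannot exclude it, since single libraries that stand apart weigh on them. A replicate block gave 25 higher and 33 lower. A level of 3 CPM stands for 89.4 to 137 counts a library, which limits the precision of members near it.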
